A study of Rattus norvegicus with 21 samples.

Results

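Slc30a3 encodes ZnT3, the transporter that loads zinc into synaptic vesicles, and its expression was described in 21 single rat hippocampal neurons. The gene was 1 of 16245 gene symbols in the deposited table of normalized expression. It was chosen by its symbol, which has 1 row there, and because its level in these cells had already been seen to differ between the groups. Its levels are therefore a description of the same cells and carry no test.

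The neurons came from Wistar rat embryos at embryonic day 18 that carried the VGAT-Venus transgene, in which a fluorescent protein is tied to the vesicular GABA transporter, and all were cultured for 17 days in vitro. Each was recorded with a patch electrode, its content was aspirated, and its polyadenylated RNA was amplified with the SMART-Seq v4 kit and sequenced. Cultures that kept their glial cells gave 5 pyramidal and 6 GABAergic neurons. A further 5 GABAergic neurons came from purified cultures. These had an antimitotic treatment against dividing cells, FdU with U at 5 µM, added 24 h after dissection and removed after 36 h. The last 5 GABAergic neurons came from purified cultures that also received oligodendrocyte conditioned medium (OCM), taken from cultured rat oligodendrocytes, from day 3 in vitro. No group had both the antimitotic treatment and glia, and pyramidal cells were taken only from cultures with glia. The labels name no animal, dish or date, so each group counts as 1 sample of several cells, and the SD and range printed here are the spread between cells.

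In the adult hippocampus ZnT3 is best known from the mossy fibre terminals of glutamatergic granule cells, where the AP-3 adaptor complex sorts it to vesicles and zinc is released together with glutamate. Slc30a3 is for this reason commonly read as a gene of glutamatergic neurons. Slc17a7, which encodes the vesicular glutamate transporter VGLUT1, and Gad1, which encodes the GABA-synthesising enzyme GAD67, are the usual markers of the glutamatergic and the GABAergic phenotype and were read in the same cells.

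The deposited row of Slc30a3 (identifier GSRG0025868) covers chr6:26629827-26650105 of the rat build rn6, a span of 20279 bases. No other row of the table overlapped it. The nearest rows were Dnajc5g, which ended 236 bases before it, and Cad, which began 7401 bases after it. Dnajc5g was at 0 in all 21 cells, so reads from that close neighbour were not seen. The promoter is shown because it is the regulatory sequence that precedes the gene whose level differed between the groups. RefSeq places it, on the plus strand of the build GRCr8, at chr6:30997164-30997413, the 250 bases before the annotated start. The capitals mark the letters CACGTG, a form of E-box, and both copies of GGGCGG, a GC box.

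Slc30a3 promoter: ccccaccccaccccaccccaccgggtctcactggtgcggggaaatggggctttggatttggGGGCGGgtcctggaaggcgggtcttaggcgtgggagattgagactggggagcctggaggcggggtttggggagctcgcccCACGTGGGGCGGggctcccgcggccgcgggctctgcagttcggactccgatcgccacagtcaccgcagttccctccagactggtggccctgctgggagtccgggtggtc

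The E-box letters began 109 bases before the start and the GC boxes 189 and 103 bases before it, in a search of both strands; the E-box and the nearer GC box abut without sharing a base. Over 27457 rat promoters of the same length, 5.79% held CACGTG and 32.4% held GGGCGG. The looser pattern CANNTG, which includes CACGTG, occurred once here, at the same place, and in 65.2% of promoters. The stretch was 70.4% G and C, against a median of 52% over all promoters. It held no TATAAA (present in 13.1% of promoters), no TGACG (18.96%) or TGACGTCA (1.70%) of the cyclic AMP response elements, and neither TGCACNC (10.2%) nor TGCGCNC (12.7%), the core letters of metal response elements. These matches describe letters and do not locate a bound factor.

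The depth behind these values was 1817671 to 25160911 reads per cell, recovered from the deposited values, with 2540 to 8652 rows above 0. The group ranges were 1817671 to 22669537 reads for pyramidal cells, 5587208 to 25160911 for GABAergic cells with glia, 2442814 to 7821375 for purified cells and 5730139 to 12967563 for OCM-treated cells. Of the 16 GABAergic cells all held Gad2 and Slc32a1, the GABA-synthesising enzyme GAD65 and the vesicular GABA transporter. Pyramidal cell 3 went against its label in part: it had no Slc17a7 read and carried the oligodendrocyte gene Mbp at 278859 normalized units, the astrocyte and microglia gene Apoe at 59681 and the microglia gene Aif1 at 12526. The glutamatergic lineage gene Neurod2, at 1770, was nevertheless the highest there of all 21 cells, and the glial genes Mog, Mag, Sox10, Cx3cr1, Csf1r and P2ry12 were at 0. Pyramidal cell 4 held Slc17a7 but also Mbp at 95386. The 9 oligodendrocyte markers summed to 0 to 322190 in pyramidal cells, 0 to 1352 in GABAergic cells with glia, 0 to 857 in purified and 0 to 9.16 in OCM-treated cells. The Slc30a3 difference of the pyramidal group is given with and without both cells, and other pyramidal differences are given with all cells.

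Slc30a3 was high in every GABAergic cell that had either glia or OCM and was at 0 or low in nearly all others. It was above 0 in 13 of 21 cells. These were 11 of the 11 GABAergic cells with glia or OCM and 2 of the 10 pyramidal or purified cells. The values below are in the authors' normalized units, which put the cells on 1 common scale.

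In GABAergic neurons with glia, Slc30a3 was at 6563, 5927, 1654, 1689, 3473 and 1140 in cells 1 to 6. None of the 6 values was near 0. In OCM-treated GABAergic neurons it was at 391, 855, 4958, 5254 and 7809 in cells 1 to 5. Cells 1 and 2 were lower than the other 3, and cell 5 was the highest of all 21 cells. In purified GABAergic neurons without OCM it was at 0 in cells 1 to 4 and at 83.0 in cell 5. The single value above 0 was lower than that of any cell with glia or OCM. In pyramidal neurons it was at 0 in cells 1, 3, 4 and 5 and at 2707 in cell 2, a value inside the range of the GABAergic cells with glia.

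**Figure D1:**
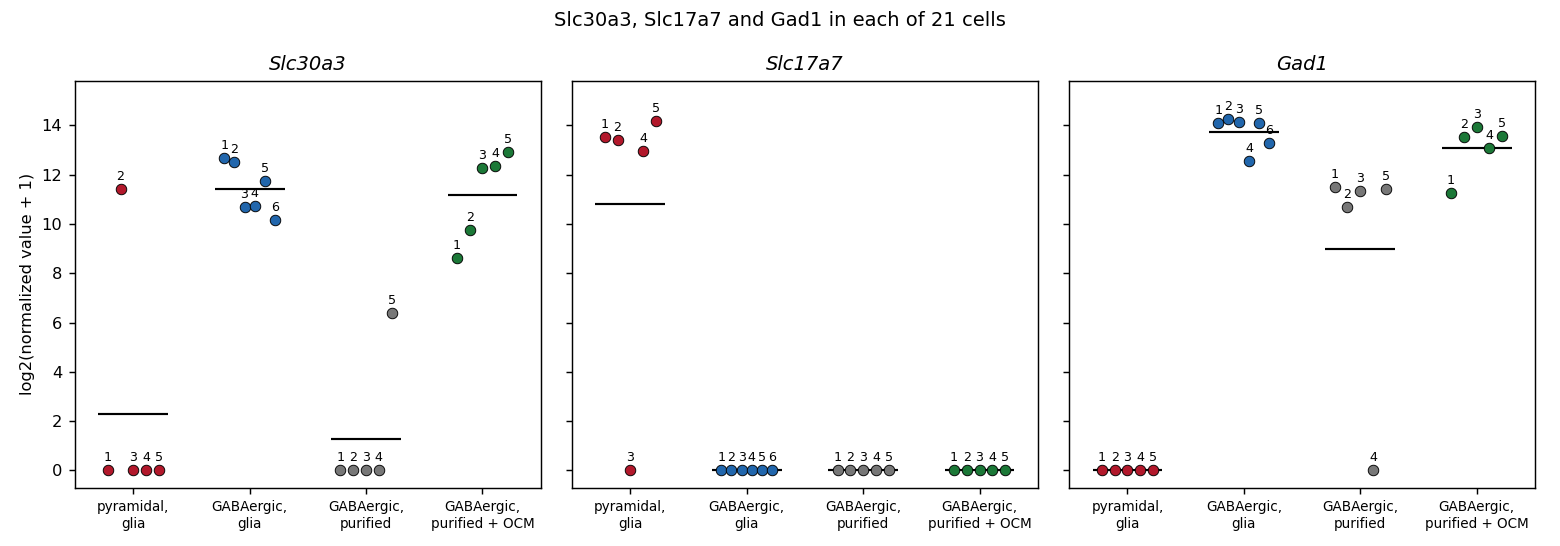
Slc30a3, Slc17a7 and Gad1 in each of the 21 cells, as log2 of the normalized value plus 1; points are cells numbered within their group and bars are group means. Slc30a3 is above 0 in all 11 GABAergic cells with glia or OCM and in 2 of the other 10, while Slc17a7 is at 0 in all 16 GABAergic cells.

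As group means the order was 3853 for OCM-treated cells (SD 3155, n = 5 cells), 3408 for GABAergic cells with glia (SD 2344, n = 6), 541 for pyramidal cells (SD 1211, n = 5) and 16.6 for purified cells (SD 37.1, n = 5). The OCM-treated and glia-cultured cells, neighbours in this order, differed by less than the SD of either. On the log2 scale they changed places, with means of 11.18 and 11.42. The pyramidal and purified groups, the other neighbours, each rested on 1 cell above 0 and their ranges overlapped. An SD is a poor summary of those groups, in which 4 of 5 values were 0.

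The zeros were set against the sequencing depth of their cells, which does not cover RNA lost before sequencing. A count of 3 reads would have given 0.935 to 8.22 normalized units in the 8 cells at 0, whereas the lowest cell with glia or OCM was at 391. The reads themselves were 21659, 11875, 2660, 2746, 6511 and 805 in GABAergic cells 1 to 6 with glia and 672, 1681, 8114, 8003 and 5035 in OCM-treated cells 1 to 5. Purified cell 5 had 89 reads (exact Poisson 95% interval 71.5 to 109.5) and pyramidal cell 2, the shallowest of all cells, had 459 (418 to 503). These intervals cover counting error only, since reads amplified by PCR without molecular identifiers are not independent molecules. With every cell thinned to 1817671 reads, the same 13 cells held the gene. They then had 265 to 1501 reads in cells with glia, 102 to 1584 in OCM-treated cells, 24 in purified cell 5 and 459 in pyramidal cell 2.

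The first comparison asked how purified GABAergic neurons differ from those kept with glia. Slc30a3 was lower in all 5 purified cells than in all 6 cells with glia. The mean of log2(normalized value + 1) was 1.28 (SD 2.86) against 11.42 (SD 1.05), a difference of -10.15. It was the 11th lowest of 6302 genes measured, meaning above 0 in at least 3 cells of the groups compared, and the median difference over these genes was -2.13. Of all genes measured, 64.4% were lower by at least 1 log2 unit in purified cells and 1.51% were lower with no overlap between cells. With reads pooled over the cells of a group, the gene stood at 3.44 CPM (its reads scaled to library total) in purified cells and 525 CPM in cells with glia, which is 153-fold higher with glia. Without purified cell 5 no read remained in that group. Putting a floor of 3 reads over the group in place of 0 gave 3164-fold. That size is set by the floor and is not a lower bound on the difference in expression.

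OCM against no OCM in purified cultures showed the opposite direction. All 5 OCM-treated cells were above all 5 purified cells, with means of log2 values of 11.18 (SD 1.89) and 1.28 and a difference of 9.91. This was the 4th highest of 5143 genes measured, whose median was 1.40. Here 56.0% of genes were higher by at least 1 log2 unit and 0.817% were higher with no overlap. OCM-treated cells held 463 CPM in pooled reads, 135-fold the purified level. Without purified cell 5 the same floor in place of 0 reads gave 2793-fold. This comparison and the preceding one share the purified cells, so their sizes are not independent of each other.

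Between OCM-treated and glia-cultured GABAergic cells the difference was -0.24, smaller than the spread of either group, where the median over 6772 genes was -0.72. The 2 groups overlapped over most of their range. The ratio of mean normalized values was 1.13, with a range of 0.841 to 1.39 on leaving out single cells. With 5 and 6 cells and SDs of 1.89 and 1.05 this does not show that the levels were equal.

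Pyramidal cells were lower than GABAergic cells in the same glial cultures, with means of log2 values of 2.28 (SD 5.10) and 11.42 and a difference of -9.14. It was the 57th lowest of 6571 genes measured, whose median was -2.05. Of these genes 64.2% were lower by at least 1 log2 unit in pyramidal cells. The groups overlapped through pyramidal cell 2, whereas 1.84% of genes were lower without overlap. Pooled reads gave 9.28 and 525 CPM, a 56.6-fold difference. It was 46.7-fold without pyramidal cell 3 and 30.6-fold without pyramidal cell 4. Without pyramidal cell 2 no read remained, and the floor of 3 reads in place of 0 gave 8336-fold. Leaving out pyramidal cell 3 gave -8.57 and leaving out cells 3 and 4 gave -7.62. The ratio of mean normalized values was 6.29, far smaller than the log2 difference, because a single cell carried the pyramidal mean. It was also far smaller than the pooled ratio, since pooling weighs cells by depth and that cell was the shallowest. On its own, pyramidal cell 2 stood at 253 CPM, where single GABAergic cells with glia were at 144 to 861 CPM.

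The letters that open the sample titles, whose meaning the labels do not give, moved with the level in part. Among GABAergic cells with glia, the cells titled ech were at 5927 and 6563, those titled P at 1654 to 3473 and the one titled S at 1140. In the purified group the 4 cells titled S were at 0 and the one titled P was cell 5. All OCM-treated cells were titled S. Among cells titled S, OCM-treated minus purified was 11.18, purified minus glia was -10.16 and pyramidal minus glia was -4.45, while OCM-treated minus glia was 1.03, of opposite sign to the -0.24 over all cells. Among cells titled P, purified minus glia was -4.67 and pyramidal minus glia was -11.06. The other 5 of these 6 values had the direction found over all cells, and in 4 of the 6 an arm was a single cell.

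Depth and detection also moved with the gene. Cells with Slc30a3 had 2715 to 8652 rows above 0 and cells without it 2540 to 5325. At equal depth, purified cells had 2530 to 3814 rows above 0, OCM-treated cells 3752 to 5694 and cells with glia 3601 to 8176. Log2 of the Slc30a3 value had a Pearson r with log2 of the total reads of 0.30 over all 21 cells. It was 0.75 over the 16 GABAergic cells and 0.13 over the 13 cells with the gene. With the number of rows above 0, r was 0.51, 0.47 and 0.16 over the same 3 sets of cells. The part of RNA content or capture in the group differences was not tested.

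**Figure D2:**
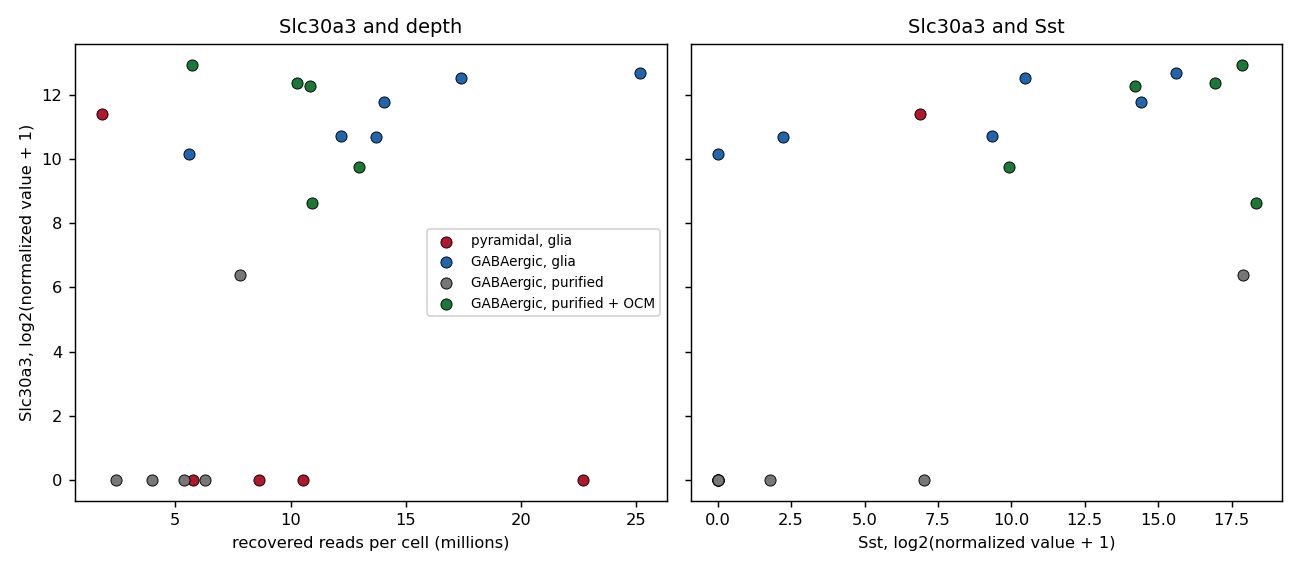
Slc30a3 as log2 of the normalized value plus 1 (y axes) against recovered reads per cell (left) and against Sst as log2 of the normalized value plus 1 (right); each point is 1 of the 21 cells, coloured by group. The shallowest cell, pyramidal cell 2, holds Slc30a3, a pyramidal cell with 22669537 reads does not, and purified cell 5 is the only purified cell with a high Sst value.

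The glutamatergic and GABAergic markers set the Slc30a3 pattern in context. Slc17a7 (chr1:101161252-101173169) was at 11740, 10875, 0, 7887 and 18423 in pyramidal cells 1 to 5 and at 0 in all 16 GABAergic cells. Slc30a3 and Slc17a7 therefore met in 1 cell, pyramidal cell 2, while 3 cells had Slc17a7 and no Slc30a3. In that cell the glutamatergic lineage genes Neurod6 (16189) and Nrgn (13341) were the highest of all 21 cells, whereas Neurod1, Neurod2, Slc17a6, Camk2a and Emx1 were at 0. The interneuron genes Gad2 (714), Satb1 (1433) and Sst (118) were present too, Gad2 also in pyramidal cell 1 (924). Pyramidal cell 2 had no read of Gad1 or of Slc32a1.

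Gad1 (chr3:56861431-56902137) was at 0 in all 5 pyramidal cells. It was at 17542, 19503, 17837, 6011, 17297 and 9885 in GABAergic cells with glia, at 2930, 1636, 2574, 0 and 2725 in purified cells and at 2422, 11931, 15540, 8585 and 12320 in OCM-treated cells. Gad1 stayed above 0 in 4 of the 5 purified cells, of which 3 had no Slc30a3. The fifth, purified cell 4, lacked Gad1 but held Gad2 at 14087 and Slc32a1 at 390.

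Slc30a3 was found with Gad1 in 12 cells and 2 cells held none of Slc30a3, Slc17a7 and Gad1, namely pyramidal cell 3 and purified cell 4. The comparisons with purified cells gave smaller differences for Gad1 than for Slc30a3. Purified minus glia was -4.74 for Gad1 and -10.15 for Slc30a3, and OCM-treated minus purified was 4.09 and 9.91. Leaving out single cells gave -5.37 to -2.50 and 1.84 to 4.72 for Gad1. Like Slc30a3, Gad1 was lower in all purified cells than in all cells with glia, as in 1.51% of genes. OCM-treated minus glia was -0.66 for Gad1 and -0.24 for Slc30a3. OCM-treated cell 1 had the lowest Gad1 value and the lowest Slc30a3 value of its group. Across cells, r between Slc30a3 and Gad1 was 0.66 over all 21, 0.67 over the 16 GABAergic cells and 0.13 over the 13 cells with Slc30a3. The correlation thus followed detection more than level, and these points share group and depth.

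Sst and Npy, neuropeptides of interneuron subtypes, varied widely inside each group. Purified cell 5, which alone of its group held Slc30a3, also had Sst at 243977 and Npy at 185668, whereas the other 4 purified cells had Sst at 0 to 130. High Sst did not go with a high Slc30a3 value in all cells. OCM-treated cell 1 had the highest Sst value, 325053, with the lowest Slc30a3 value of its group, and GABAergic cell 6 with glia had Sst at 0 and Slc30a3 at 1140. Over all 21 cells r with Sst was 0.71, and over the 13 cells with Slc30a3 it was -0.01. Reln, another subtype gene, was at 4608 to 10623 in purified cells 1 to 4, 244 in cell 5 and 0 to 2399 elsewhere. Of 8 subtype genes measured in purified minus glia, Sst, Npy, Pvalb and Tac1 were lower and Cck, Reln, Penk and Cnr1 higher. Over all genes 64.4% were lower and 11% higher. Of 6 measured in OCM-treated minus purified, Sst, Npy and Calb1 were higher and Reln, Penk and Cnr1 lower. Over all genes 56.0% were higher and 16.4% lower. The part of interneuron subtype in the difference between purified and other cells was not tested.

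Few of the 10 other zinc exporters, the SLC30 family with Tmem163, were detected often enough to be compared. In purified minus glia 3 were measured and all 3, Slc30a4, Slc30a9 and Slc30a10, were lower by at least 1 log2 unit, with a median of -5.18 against -2.13 over all genes, of which 64.4% were lower. In OCM-treated minus purified 3 were measured and all 3, Slc30a4, Slc30a5 and Slc30a9, were higher, with a median of 6.84 against 1.40 over all genes, of which 56.0% were higher. Pyramidal minus glia was mixed, with 3 lower and 2 higher of 6 measured, where 64.2% of all genes were lower and 13.3% higher. Of these exporters Slc30a9, linked to mitochondrial zinc, was found in the most cells. It was above 0 in 6 of 6 cells with glia and 5 of 5 OCM-treated cells, and in 2 of 5 purified and 2 of 5 pyramidal cells, and its r with Slc30a3 was 0.69 over 21 cells and 0.76 over the 13 cells with Slc30a3. Slc30a4, which moves zinc into endosomal and secretory compartments, was at 0 in every purified and every pyramidal cell. It was at 141, 96.7, 62.3, 317 and 346 in OCM-treated cells 1 to 5. OCM-treated minus purified was 7.30 without overlap, as in 0.817% of genes. In cells with glia Slc30a4 was at 0, 392, 325, 0, 37.9 and 449.

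The remaining exporters were sparse. Slc30a5, an exporter of the early secretory pathway, was at 3751, 8226 and 1236 in pyramidal cells 1, 3 and 4, and above 0 in 1 GABAergic cell with glia (2145). Its pyramidal minus glia difference of 5.19 was opposite in direction to that of Slc30a3. Pyramidal cells 3 and 4 were those with high Mbp, and the Slc30a5 difference was not computed without them. Slc30a2 was found in 1 cell with glia (1544). Tmem163, a zinc-binding vesicle protein, was found in 3 cells, none of which held Slc30a3. Slc30a7 and Slc30a8, the latter the exporter of pancreatic insulin granules, were at 0 in all 21 cells.

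**Figure D3:**
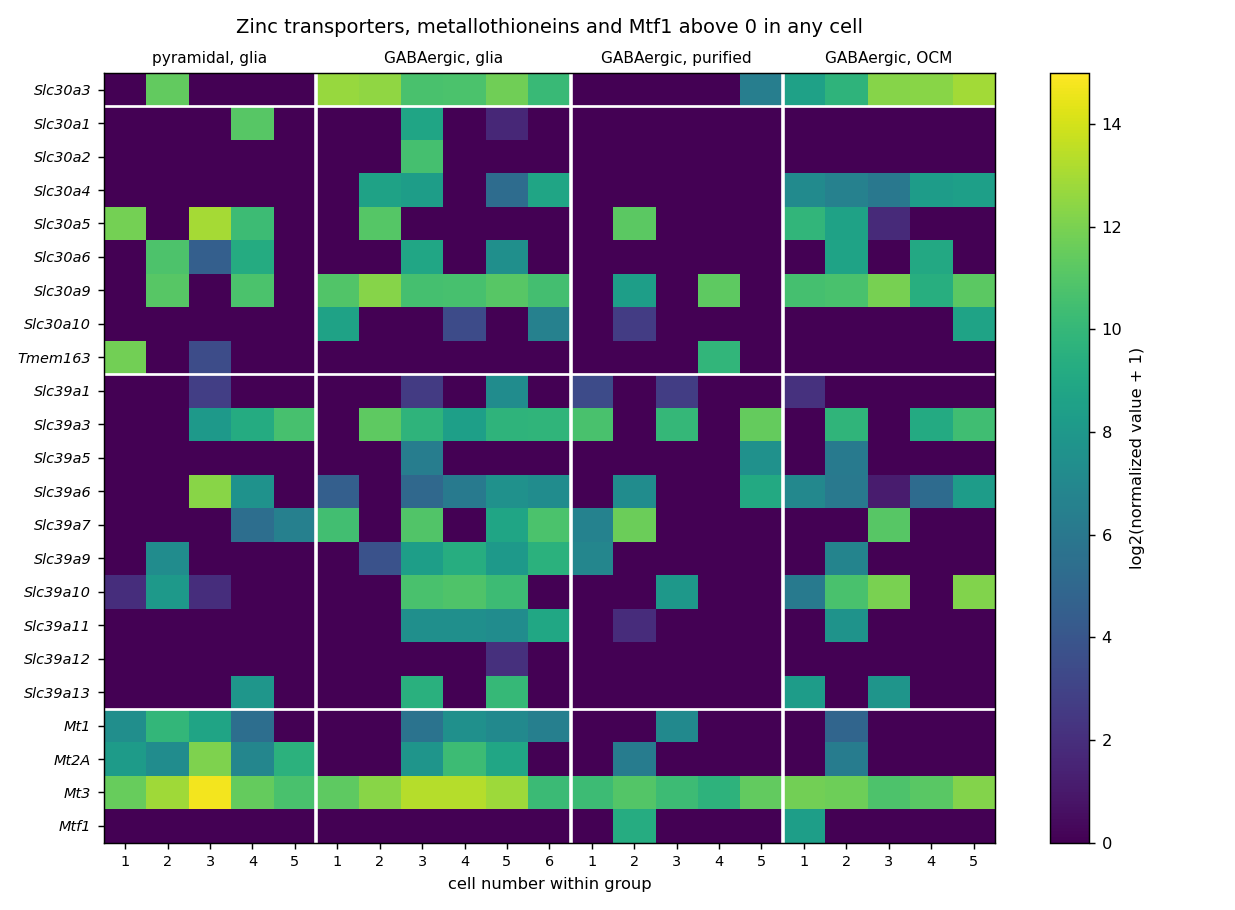
Slc30a3 and other zinc genes above 0 in at least 1 cell, as log2 of the normalized value plus 1, in 21 cells grouped by culture; white lines part the groups of cells and, from top to bottom, Slc30a3, other exporters, importers, and the metallothioneins with Mtf1. Slc30a9 and Slc30a4 are above 0 in all 5 OCM-treated cells, and Mt3 is above 0 in all 21 cells.

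Zinc transporters were counted as 1 list of 24, the 10 other exporters and the 14 SLC39 importers, which bring zinc into the cytosol. Purified minus glia had 10 measured members, of which 9 were lower and 0 higher by at least 1 log2 unit, with a median of -3.44 against -2.13 over all genes; 64.4% of all genes were lower and 11% higher. OCM-treated minus purified had 8, of which 5 were higher and 1, Slc39a7, lower, with a median of 2.04 against 1.40; 56.0% of all genes were higher and 16.4% lower. Pyramidal minus glia had 14, of which 11 were lower and 2 higher, with a median of -2.74 against -2.05; 64.2% of all genes were lower and 13.3% higher. OCM-treated minus glia had 13, of which 6 were lower and 3 higher, with a median of -0.21 against -0.72; 44.4% of all genes were lower and 20.3% higher. In each comparison the more frequent direction in the list was the more frequent one over all genes. Slc30a3 was chosen for its differences between these groups, so its distance from the list's median is no separate result.

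In OCM-treated minus purified the importers alone had 2 higher and 1 lower of 5 measured, with a median of -0.55 against 1.40 over all genes. Slc39a10, a plasma membrane importer, had its highest group mean in OCM-treated cells, at 70.9, 1669, 4034, 0 and 4592, with 252 in 1 purified cell and 0 in the other 4. Slc39a3 was above 0 in 3 of 5 purified and 3 of 5 OCM-treated cells, so it did not follow Slc30a3. Slc39a6 was at 5246 in pyramidal cell 3, the cell with glial transcripts.

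Zinc-binding metallothioneins went the way of Slc30a3 in some comparisons only. In purified minus glia all 3 measured, Mt1, Mt2A and Mt3, were lower, with a median of -3.04 against -2.13 over all genes. Of all genes 64.4% were lower there. In OCM-treated minus purified only Mt3 was measured, at 1.01 against a median of 1.40. In pyramidal minus glia Mt1 and Mt2A were higher and 0 of 3 lower, where 13.3% of genes were higher and 64.2% lower. Mt3, the metallothionein of the brain, was above 0 in all 21 cells, at 826 to 27226, with the highest value in pyramidal cell 3. Mt2A was above 0 in all 5 pyramidal cells (115 to 4338) and in 1 purified and 1 OCM-treated cell, and pyramidal minus glia was 4.34. The highest Mt2A value was again in pyramidal cell 3, and the part of glial RNA in it was not tested. Gpr39, a receptor that senses extracellular zinc, was at 0 in all cells.

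The AP-3 subunits, which sort ZnT3, varied from one to another. In purified minus glia 5 of 6 were lower by at least 1 log2 unit and 1, Ap3s1, was higher, with a median of -2.20 against -2.13 over all genes, of which 64.4% were lower and 11% higher. Ap3b1 and Ap3s2 were at 0 in all 5 purified cells, Ap3m1 was above 0 in 1 of them and Ap3m2 in 2. In OCM-treated cells these 4 genes were above 0 in 1, 4, 3 and 4 of 5 cells. Ap3d1, the delta subunit of AP-3, was above 0 in all 5 purified cells (340 to 2521) and in 3 of 5 OCM-treated cells (378 to 1165). Its OCM-treated minus glia difference was -5.37 with no overlap between cells, as in 0.517% of genes. The groups nearly touched, since the lowest Ap3d1 value with glia was 1183. Ap3s1, the sigma subunit, was above 0 in 5 purified cells and 4 OCM-treated cells. Of the 17 subunits and accessory proteins of the vesicular proton pump, whose gradient drives zinc uptake, 12 to 17 were above 0 in any single cell. The pump subunit Atp6v0c was at 3049 to 39866 over the 21 cells. In purified minus glia, 5 of 17 pump genes were lower and 0 higher, with a median of -0.42 against -2.13 over all genes, of which 64.4% were lower and 11% higher.

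Vesicle carriers other than Slc30a3 gave a mixed picture. Slc32a1 was above 0 in all 16 GABAergic cells, in purified cells at 390 to 1357. Sv2a, a vesicle glycoprotein, was at 1438 to 6101 in cells with glia, 0 to 548 in purified cells, 0 to 1174 in OCM-treated cells and 0 in all 5 pyramidal cells. Its OCM-treated minus glia difference was -3.50 without overlap, as in 0.517% of genes, where Slc30a3 had -0.24. The groups nearly touched, at 1174 in the highest OCM-treated cell and 1438 in the lowest cell with glia. Clcn3, a chloride/proton exchanger of vesicles and endosomes that has been linked to ZnT3, was above 0 in 5 of 6 cells with glia, 1 of 5 purified cells and all 5 OCM-treated cells. The purified exception for Clcn3 was cell 2 at 6485, not cell 5, and in pyramidal cells it was at 6175, 64.9, 0, 1775 and 0.

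Among targets of synaptic zinc, Kcnk3, an acid-sensitive potassium channel, was at 0 in all purified and pyramidal cells. It was at 488, 458, 994, 567 and 2063 in OCM-treated cells and above 0 in 2 cells with glia (552 and 555). Grin1, the obligatory NMDA receptor subunit, was above 0 in 4 of 5 purified and in all OCM-treated cells, and purified minus glia was -4.61. Grin2a, whose product holds the high-affinity zinc site of NMDA receptors, was found in 2 cells, both with glia (218 and 168). Ntrk2, the BDNF receptor TrkB, was above 0 in all purified and OCM-treated cells.

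Along the chromosome the neighbours of Slc30a3 did not share its pattern. Of the 5 genes with a symbol on each side, Ucn, Trim54 and Dnajc5g were at 0 in every cell. For the neighbours with reads, r with Slc30a3 over 21 cells was 0.13 to 0.38.

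The genes whose pattern was most like that of Slc30a3 were ranked by Pearson r of log2(normalized value + 1) over the 21 cells, among 4395 genes above 0 in at least 8 cells. The highest 8 were Dlg3 (0.90), Ntm (0.89), Rangap1 (0.88), Pigs (0.88), Csdc2 (0.86), Satb1 (0.85), LOC100125362 (0.85) and Fam84a (0.85), followed by Nefh at 0.84. The median r over the ranked genes was 0.21 and 17 genes were over 0.8. The cells share group, depth and number of genes found, so a high r here describes co-detection.

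Dlg3, which encodes the synaptic scaffold SAP102, was found in 12 cells, all of them among the 13 with Slc30a3. It was at 236 in pyramidal cell 2, at 778, 318, 165, 143, 504 and 1718 in cells with glia and at 960, 186, 1542, 91.3 and 32.6 in OCM-treated cells. Purified cell 5 was the one cell with Slc30a3 and no Dlg3. Satb1, a chromatin organiser of interneurons, was also found in 12 cells, all with Slc30a3, and at 2685 in purified cell 5. Ntm, a neuronal adhesion molecule, was found in all 13 cells with Slc30a3 and 2 without. Pigs, a subunit of the enzyme that attaches lipid anchors to proteins, was found in all 13 and in 1 other, pyramidal cell 1. Csdc2, an RNA-binding protein, and Rangap1, the activator of the Ran GTPase, were found in 2 cells each without Slc30a3.

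**Figure D4:**
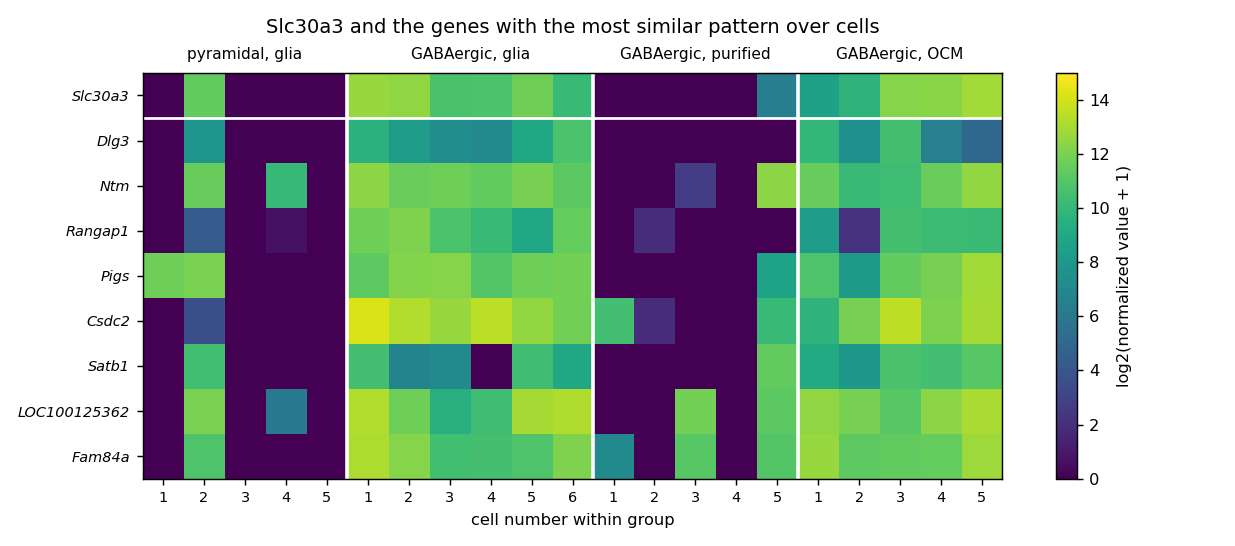
Slc30a3 and the 8 genes with the highest Pearson r to it over 21 cells, as log2 of the normalized value plus 1; columns are cells by group and the white horizontal line sets Slc30a3 apart. Dlg3 and Satb1 are each above 0 in 12 cells, all of which hold Slc30a3.

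Within the 13 cells that held Slc30a3 the likeness of levels was smaller for each of the 8 genes. It was 0.72 for Pigs, 0.71 for Rangap1, 0.47 for Dlg3, 0.32 for Csdc2, 0.27 for Fam84a, 0.25 for LOC100125362 and 0.03 for both Ntm and Satb1. Ranked over the 16 GABAergic cells alone, the highest 8 shared 2 genes with the first ranking, Pigs (0.97) and Ntm (0.93). The names in such a ranking thus depended on the cells it was computed over.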

How the data were processed

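The cDNA of single aspirated neurons, made with the SMART-Seq v4 kit, became paired-end Nextera XT libraries, per the labels' protocols. The submitters' processing notes list the build rn6 and the tools STAR 2.4.0, DESeq2, Picard, FastQC and SAMtools. The counter, annotation and strand setting, not given in the sources used here, could each change a value. The authors deposited a signal for each gene and cell, never below 0, which the table's name calls DESeq2-normalized. There were 34976 rows, of which 18376 lacked a symbol. The highest row of each of 16245 symbols was kept, leaving out 355, and 0 columns of values lacked a sample.

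In each cell 100% of values were whole multiples of 1 step within 0.05, which gave back the reads. No count test was run on them, because cells are not replicates and the labels name no animal or culture. Differences are of group means of log2(value + 1), a pseudocount of 1, over genes above 0 in at least 3 cells of both groups together. They understate changes of low genes. Where a group holds zeros they can far exceed the log2 ratio of group means, as for Slc30a3 in pyramidal minus glia (-9.14 against -2.65). A gene was counted as lower or higher from 1 log2 unit. The scripts were tested on simulated data. Slc30a3, the lists and the comparisons were chosen with earlier results of these data known. Named genes were Slc30a3, Slc17a7, Gad1, Sst, Npy, the 8 most alike genes, 5 neighbours on each side and, per list, up to 4 by mean and up to 4 by difference; other names, mainly of genes at 0 or in few cells, were chosen after their values were seen. Symbols without a row in the table (Mt1a, Mt1m, Ap3b2, Slc6a17, Dlx6, Lhx6, Aldh1l1, Cldn5, Col1a2) were not analysed here. Promoters came from RefSeq (GRCr8), a different build from the table's, so no table coordinate was read from it. The alternatives tried were other pseudocounts and scalings, the median, the ratio of means, thinning, title letters, no filter and leaving out each cell. Computations ran in Python 3.11.15 with scipy 1.17.1, pandas 2.3.3 and numpy 2.4.6, and plots in matplotlib 3.10.9.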

Additional observations from a re-analysis of the deposited data

Results flagged for a closer look

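In 54 pairs of a gene and a group, over 15 genes, a single cell was compared with the rest of its group, and in 17 pairs 1 cell stood apart by a gap that Dixon's test at 95% does not expect. Chance flags about 1 in 20 groups, and many groups here hold zeros beside 1 value above 0, so the count is a description.

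For Slc30a3 itself these were pyramidal cell 2 at 2707 and purified cell 5 at 83.0, the only cells of their groups above 0. Pyramidal cell 2 stood apart as well in Sst (118), Dlg3 (236), Rangap1 (17.7), Csdc2 (11.8), Satb1 (1433), LOC100125362 (3975) and Fam84a (1899). Purified cell 5 stood apart in Sst (243977), Npy (185668), Ntm (5364), Pigs (412) and Satb1 (2685). The remaining cases were Npy in pyramidal cell 4 (3712) and in GABAergic cell 5 with glia (39192), and Rangap1 in purified cell 2 (2.71). The genes most like Slc30a3 were chosen for being above 0 where it is, so their appearance beside it in these cells adds nothing to the Slc30a3 values.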

How the results depend on the processing

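No reported Slc30a3 difference of at least 1 log2 unit changed sign under any alternative run. Leaving out any 1 cell gave -11.42 to -8.57 for pyramidal minus glia, -11.42 to -9.83 for purified minus glia, 9.47 to 11.18 for OCM-treated minus purified and -0.68 to 0.40 for OCM-treated minus glia. The log2 ratio of group means was -2.65 for pyramidal minus glia and -7.60 for purified minus glia. Cells titled S alone gave -4.45 for pyramidal minus glia and cells titled P alone -4.67 for purified minus glia. Pseudocounts of 10 and 0.1 gave -7.47 and -12.81 for purified minus glia, and 7.23 and 12.57 for OCM-treated minus purified; the size of a difference from zeros is set by the pseudocount.

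In the list of 24 zinc transporters, subtracting the median over all genes left 6 lower in pyramidal minus glia, 1 higher in purified minus glia, 3 lower and 3 higher in OCM-treated minus purified, and 5 higher in OCM-treated minus glia. Without the filter there was 1 higher in purified minus glia, and 2 lower and 9 higher in OCM-treated minus purified. A pseudocount of 10 gave 0 lower and 3 higher there. Leaving out any 1 cell gave 0 to 3 lower in OCM-treated minus purified and 3 to 5 higher in OCM-treated minus glia. Of the 8 most alike genes, 2 were again in the highest 8 by Spearman rho, 2 over the 16 GABAergic cells and 3 to 8 when any 1 cell was left out.

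No paired analysis was possible because cell numbers follow the order of the samples and pair nothing. The limits are 1 sample of 5 or 6 cells per group, title letters of unknown meaning that are spread unevenly over the groups (OCM-treated minus purified was 11.18 within cells titled S, and OCM-treated minus glia 1.03), and groups that differ in depth. A gene at 0 in a patched neuron had no recovered read, which does not show that its RNA was absent from the neuron.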
